A study of Mus musculus with 6 samples.

Results

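A set of 9 genes of the Hedgehog pathway was followed through the differentiation of mouse embryonic stem cells into neurons. They are the ligand Shh, the receptor Ptch1, the ligand-binding protein Hhip, the co-receptors Boc and Gas1, the signal transducer Smo and the transcription factors Gli1, Gli2 and Gli3. They were selected by gene symbol, and each of the 9 had 1 row in every table, out of 46517 gene IDs. Of the 9, 8 passed the filter of at least 1 TPM in at least 2 of the 6 libraries, as did 20232 genes in all. The gene left out was Shh. All 8 reached 1 TPM in both mESC and both NPC libraries, so none passed through a single stage alone. RNA was sequenced from E14TG2a, a mouse embryonic stem cell line with the genotype given as wild type, at 3 stages with 2 libraries each. The mESC group was untreated stem cells kept on gelatin with serum and LIF. The NPC group carries the treatment label of neuronal differentiation, and its name is taken as neuronal progenitors. The NC group has the same treatment label and is taken as the last stage of the design text, glutamatergic pyramidal neurons, since the labels do not spell the name out. The labels cite a published protocol, known to use cell aggregates and retinoic acid, and give embryonic stem cells as the cell type of all 6 samples. All groups come from 1 cell line, and p-values measure the spread between 2 libraries a stage, which the labels call biological replicates.

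Hedgehog ligands are secreted proteins that bind the membrane receptor PTCH1. Without ligand PTCH1 holds SMO inactive, and GLI2 and GLI3 are processed at the primary cilium, GLI3 mainly into a repressor. With ligand, SMO becomes active and full-length GLI proteins switch on target genes. Ptch1, Hhip and Gli1 are themselves such targets and serve as readouts of the pathway, while Boc, Gas1 and Cdon encode co-receptors that the signal lowers in the neural tube. In the developing spinal cord SHH from notochord and floor plate patterns ventral progenitors, and the GLI3 repressor holds ventral genes off dorsally.

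The values are deposited TPM, an abundance of transcripts per unit of length that sums to 1000000 in every library. They can therefore be compared between genes as levels by this measure. Aligned sequence amounted to between 1.57 and 2.27 Gb per library. The tables hold no counts, so no counting interval can be given, and an exact 0 is reported only as listed at 0. Stem cell markers (Pou5f1, Nanog, Zfp42, Esrrb, Klf4) summed to 24.3 and 18.5 TPM in NPC, against 3214 and 3821 TPM in mESC. The 5 progenitor markers summed to 774 and 667 TPM in NPC, against 26.9 and 43.8 TPM in mESC. In NC they summed to 1099 TPM in replicate 1 and 340.5 TPM in replicate 2. The NC libraries stand apart most in Fabp7 (792 and 164 TPM) and Hes5 (131 and 13.7 TPM). Pax6 and Sox1 were also lower in replicate 2, whereas Nes was higher (84.2 and 119.8 TPM). Fabp7 made up most of the sum in NC replicate 1 and had 34.1 and 68.1 TPM in NPC. Pax6 (257 and 181 TPM in NPC), Hes5 (359.5 and 287 TPM) and Sox1 (21.3 and 20.25 TPM) were below NPC in both NC libraries. Nes had 102 and 109.6 TPM in NPC. Glia markers summed to 115.8 and 68.0 TPM in NC, against 57.4 and 51.8 TPM in NPC. Of the sum in NC replicate 1, 59.3 TPM was Aldh1l1, which had 1.89 TPM in replicate 2. Of 5 tested glia markers, 1 was called higher in NC than in NPC (20.0%, against 15.2% of all tested genes). The 6 neuron markers summed to 3175 and 2874 TPM in NC, against 511 and 825 TPM in NPC. Fibroblast and smooth muscle markers were also present in NC, where all 8 rose against NPC, as did 15.2% of all tested genes. They summed to 919 and 1081 TPM in NC, against 40.2 and 79.7 TPM in NPC. The part of progenitor, glia, fibroblast and smooth muscle markers in the NC results was not tested. In bulk RNA, fewer cells of a type and less RNA per cell cannot be told apart. The comparison NPC against mESC and the comparison NC against NPC share the NPC libraries, and a deviation of those libraries moves both in opposite directions.

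Of the 8 tested genes, 5 were higher in NPC than in mESC, where 26.0% of all tested genes were called higher. In NC 6 were lower than in NPC, where 10.1% of all tested genes were called lower, and Gli1 fell furthest. The rises stayed called with each single library left out, whereas several of the falls did not when 1 NPC library was left out. The co-receptor genes Gas1 and Boc had the largest rises of the 8 at the first step. Gli1 stayed within the spread of its libraries at the first step and averaged 1.90 TPM in NC, against 37.2 TPM in NPC. Shh did not exceed 1.02 TPM in any library.

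Shh encodes Sonic hedgehog, the ligand of the ventral neural tube (ENSMUSG00000002633.4, chromosome 5, 28456815 to 28467256, minus strand, mm10). Both mESC libraries list it at 0. In NPC replicates 1 and 2 it had 0.795 and 1.02 TPM, and in NC replicates 1 and 2 it had 0.882 and 0 TPM. The signal is thus at the detection edge in NPC and in 1 of the 2 NC libraries. The deposited coverage, taken as read depth per base, was 0.808 and 0.915 in NPC and 0.642 in the NC library with signal. Shh was not tested because of the filter. With no filter beyond a TPM above 0 it was not called in NPC against mESC (limma adjusted p = 0.129), in NC against NPC (adjusted p = 0.445) or in NC against mESC (adjusted p = 0.349). Of 9 genes listed as markers of notochord and floor plate, the classical sources of SHH, 5 were tested, and Noto was listed at 0 in all 6 libraries. Of the 5, Spon1 and Lmx1a rose in NPC against mESC (40.0%, where 26.0% of all tested genes rose). Lmx1a is not particular to these sources. In NC against NPC Chrd rose (30.0 and 21.9 TPM in NC, 6.96 and 7.57 TPM in NPC) and Lmx1a fell. Each is 20.0% of the 5, where 15.2% of all tested genes rose and 10.1% fell. In replicates 1 and 2, the 9 markers summed to 60.8 and 44.1 TPM in mESC, 49.2 and 41.3 TPM in NPC and 129.9 and 52.1 TPM in NC. Most of the sum in mESC was Ntn1, at 51.2 and 36.2 TPM, as in NPC, at 29.2 and 23.7 TPM. In NC Ntn1 had 82.5 TPM in replicate 1, most of that sum, and 21.8 TPM in replicate 2.

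Another ligand gene had a higher level. Ihh, which encodes Indian hedgehog, had 19.5 and 15.3 TPM in NPC, against 4.14 and 0.949 TPM in mESC. It rose at this step (log2 fold change 2.53, SE 0.522, adjusted p = 0.0097 in limma) and had 0.288 and 1.40 TPM in NC, a fall against NPC (log2 fold change -3.38, adjusted p = 0.00752). The NPC libraries lay above all 4 others. Both calls were lost in some fits that leave out 1 library, with adjusted p up to 0.0687 for NPC against mESC and up to 0.0773 for NC against NPC. Some endoderm markers were also highest in NPC. The 7 summed to 194 and 139 TPM in NPC, against 88.2 and 21.4 TPM in mESC, and to 81.6 and 66.5 TPM in NC. Of the 7, 3 rose in NPC against mESC, namely Sox17 (77.7 and 53.45 TPM in NPC, 22.6 and 5.48 TPM in mESC), Foxa1 and Cxcr4, where 26.0% of all tested genes were called higher. Gata4, Gata6, Afp and Ttr were not called at that step. Sox17 and Foxa1 fell in NC against NPC and the other 5 were not called, with Cxcr4 at 56.0 and 20.7 TPM in NC, against 24.3 and 22.9 TPM in NPC. Afp and Ttr, markers of later endoderm, were listed at 0 in mESC replicate 2. The part of these markers in the Ihh values was not tested. Dhh, the desert hedgehog ligand gene, lay between 0 and 0.652 TPM in the 6 libraries.

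Ptch1 encodes the ligand receptor and is a target of the pathway (ENSMUSG00000021466.10, chromosome 13, 63508328 to 63573598, minus strand). It had 64.4 and 47.8 TPM in mESC replicates 1 and 2, 84.1 and 68.5 TPM in NPC, and 32.4 and 31.8 TPM in NC. The NC libraries lay below all others, while NPC lay above mESC by little more than the spread within each stage. Ptch1 was not called in NPC against mESC (log2 fold change 0.44, SE 0.192, limma adjusted p = 0.112). It fell in NC against NPC (log2 fold change -1.22, adjusted p = 0.00798) and in NC against mESC (log2 fold change -0.77, adjusted p = 0.013). The last call was lost without mESC replicate 1 (adjusted p = 0.0561), NC replicate 1 (0.0532) or NC replicate 2 (0.0613).

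Hhip encodes a membrane protein that binds and sequesters Hedgehog ligands, and is also a target (ENSMUSG00000064325.3, chromosome 8, 79966115 to 80058006, minus strand). It had 1.64 and 2.01 TPM in mESC, 9.44 and 11.4 TPM in NPC, and 1.94 and 2.64 TPM in NC. The NPC libraries stood apart from the other 4, and the mESC and NC libraries overlapped. Hhip rose in NPC against mESC (log2 fold change 2.01, SE 0.261, adjusted p = 0.00159 in limma) and fell in NC against NPC (log2 fold change -1.80, adjusted p = 0.00651). It was not called in NC against mESC (log2 fold change 0.22, adjusted p = 0.499). Under median-of-ratios and quantile scaling that last value had the opposite sign (-0.001 and -0.31).

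The promoter windows of Ptch1 and Hhip are shown because both are pathway targets and both fell in NC against NPC; they were picked after the search described next. Each holds 250 bases before and 50 bases from the start site, is taken from RefSeq on GRCm38.p6, the assembly that mm10 names, and is written 5′ to 3′ along the gene. Capitals mark GC boxes (GGGCGG on either strand), a motif chosen after the windows were read. The RefSeq start site of Ptch1 lies inside the gene model whose TPM is given, downstream of its outermost start. The Ptch1 window is chr13:63565686-63565985 on the minus strand, and the Hhip window is chr8:80057959-80058258 on the minus strand.
Ptch1: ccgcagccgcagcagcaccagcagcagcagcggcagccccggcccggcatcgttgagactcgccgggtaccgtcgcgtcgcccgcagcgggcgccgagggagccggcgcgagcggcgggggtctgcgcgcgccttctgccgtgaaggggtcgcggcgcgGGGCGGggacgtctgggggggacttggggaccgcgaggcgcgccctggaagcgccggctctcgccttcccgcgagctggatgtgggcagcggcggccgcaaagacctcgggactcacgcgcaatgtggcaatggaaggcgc
Hhip: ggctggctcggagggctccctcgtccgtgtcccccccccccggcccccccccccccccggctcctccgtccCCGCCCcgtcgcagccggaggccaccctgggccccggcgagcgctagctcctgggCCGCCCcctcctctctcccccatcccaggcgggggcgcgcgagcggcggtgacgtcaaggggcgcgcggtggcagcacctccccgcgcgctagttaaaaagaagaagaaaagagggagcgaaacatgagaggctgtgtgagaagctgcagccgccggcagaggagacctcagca
The GLI consensus GACCACCCA was searched on both strands. Windows were on hand for 6 members (Gas1, Gli2, Gli3, Hhip, Ptch1 and Smo), and the consensus was not found in any of them, nor a match with 1 letter changed. Among all 32851 windows 0.253% held the consensus, and 6.74% held it with at most 1 letter changed. Among the windows of other pathway genes, those of Foxa2, Ulk3 and Prkar1a held a match with 1 letter changed. GC boxes were in 5 of the 6 members' windows and in 49 of 74 windows of other pathway genes, against 35.7% of all windows. The windows of Ptch1 and Hhip were 76.3% and 73.7% G and C, with a median of 52.7% over all windows.

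The co-receptors had the largest changes of the 8 in NPC against mESC. Gas1 encodes a lipid-anchored protein that helps SHH bind PTCH1 (ENSMUSG00000052957.7, chromosome 13, 60174405 to 60177365, minus strand). It had 3.59 and 3.32 TPM in mESC, 130.4 and 203 TPM in NPC, and 43.0 and 48.9 TPM in NC. The 3 stages did not overlap. Gas1 rose in NPC against mESC (log2 fold change 5.20, SE 0.233, limma adjusted p = 3.62e-05), fell in NC against NPC (log2 fold change -1.80, adjusted p = 0.00487) and stayed higher in NC than in mESC (log2 fold change 3.39, adjusted p = 7.26e-05). The ratio of mean TPM was 48.2 for NPC over mESC and 13.3 for NC over mESC.

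Boc encodes a transmembrane co-receptor of the immunoglobulin and fibronectin type (ENSMUSG00000022687.10, chromosome 16, 44485045 to 44558897, minus strand). It had 2.71 and 1.49 TPM in mESC, 68.6 and 104 TPM in NPC, and 38.2 and 81.2 TPM in NC. Both differentiated stages lay far above the stem cells, and the NPC and NC libraries overlapped. Boc rose in NPC against mESC (log2 fold change 4.81, SE 0.404, adjusted p = 0.000297 in limma) and in NC against mESC (log2 fold change 4.22, adjusted p = 0.000258). It was not called in NC against NPC (log2 fold change -0.59, SE 0.404, adjusted p = 0.328). Cdon, a co-receptor related to BOC, had 23.9 and 56.9 TPM in NPC, against 9.09 and 5.41 TPM in mESC, and 10.2 and 25.95 TPM in NC. It rose in NPC against mESC (log2 fold change 2.24, SE 0.545, adjusted p = 0.0181), with adjusted p up to 0.157 when single libraries were left out.

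Smo encodes the seven-pass membrane protein that passes the signal on (ENSMUSG00000001761.7, chromosome 6, 29735503 to 29761365, plus strand). It had 46.0 and 46.8 TPM in mESC, 132 and 135 TPM in NPC, and 79.5 and 65.0 TPM in NC. The replicates agreed closely and the stages did not overlap. Smo rose in NPC against mESC (log2 fold change 1.504, SE 0.146, adjusted p = 0.000516 in limma) and fell in NC against NPC (log2 fold change -0.88, adjusted p = 0.00904). In NC against mESC it was called higher (log2 fold change 0.62, adjusted p = 0.0104), but not under median-of-ratios scaling, quantile scaling or FPKM, with log2 fold changes of 0.30 to 0.37 and adjusted p of 0.0911 to 0.155.

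**Figure D1:**
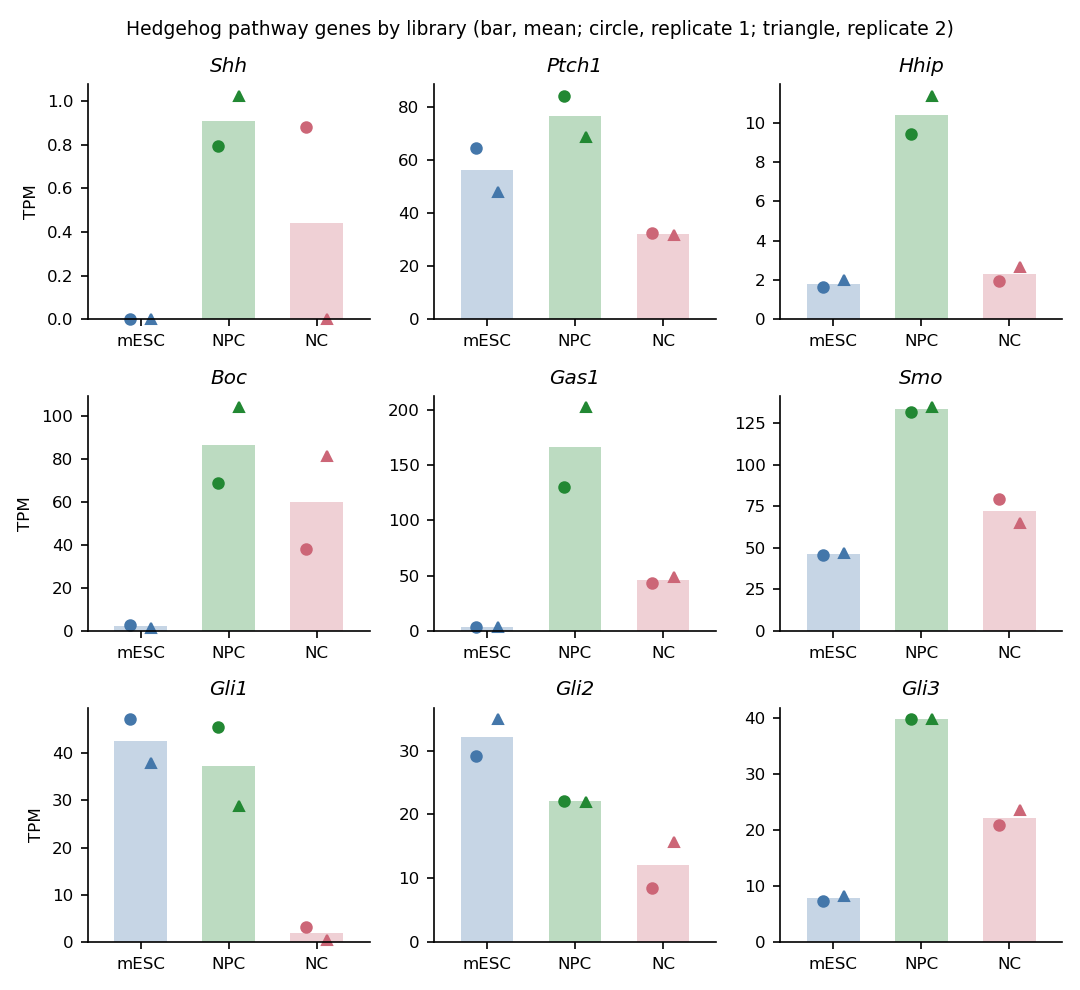
TPM (vertical axes, each starting at 0 with its own range) of the 9 genes in mESC, NPC and NC; bars are means of 2 libraries, circles replicate 1 and triangles replicate 2. Gas1, Boc, Smo, Gli3 and Hhip are higher in both NPC libraries than in both mESC libraries, and Gli1 is at 0.590 and 3.20 TPM in NC.

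The 3 GLI genes went different ways. Gli1 encodes an activator whose own transcription depends on the pathway (ENSMUSG00000025407.6, chromosome 10, 127329889 to 127341589, minus strand). It had 47.2 and 37.8 TPM in mESC, 45.5 and 28.9 TPM in NPC, and 3.20 and 0.590 TPM in NC. The mESC and NPC libraries overlapped, and both NC libraries lay far below them. Gli1 was not called in NPC against mESC (log2 fold change -0.22, SE 0.468, limma adjusted p = 0.752). It fell in NC against NPC (log2 fold change -3.85, SE 0.468, adjusted p = 0.00425) and in NC against mESC (log2 fold change -4.06, adjusted p = 0.000552). The coverage of Gli1 in NC replicate 2 was 0.496, against 2.33 in replicate 1, so the size of the fall rests on low values. NC replicate 2, the lower one, also had the lower sum of progenitor markers, though Nes was higher there (119.8 against 84.2 TPM). Of the other members, Gli2, Gli3, Hhip, Boc and Gas1 were higher in NC replicate 2, and Ptch1, Smo and Shh were lower. The part of progenitor cells in these values was not tested.

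Gli2 encodes the main activator that responds first to the signal (ENSMUSG00000048402.13, chromosome 1, 118834132 to 119053619, minus strand). It had 29.1 and 35.0 TPM in mESC, 22.2 and 21.9 TPM in NPC, and 8.57 and 15.7 TPM in NC. The stages did not overlap, with mESC highest and NC lowest. Neither step was called, with log2 fold changes of -0.51 (SE 0.284, limma adjusted p = 0.197) in NPC against mESC and -0.86 (adjusted p = 0.068) in NC against NPC. The comparison NC against mESC was called (log2 fold change -1.38, adjusted p = 0.006), but not without mESC replicate 2 (adjusted p = 0.0656). The step NC against NPC was called under quantile scaling (adjusted p = 0.0437), with FPKM (adjusted p = 0.0395) and without NC replicate 2 (adjusted p = 0.0269).

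Gli3 encodes the factor that acts mainly as a repressor when the pathway is off (ENSMUSG00000021318.14, chromosome 13, 15463235 to 15730026, plus strand). It had 7.37 and 8.31 TPM in mESC, 39.8 and 39.7 TPM in NPC, and 20.8 and 23.6 TPM in NC. The stages did not overlap. Gli3 rose in NPC against mESC (log2 fold change 2.21, SE 0.175, limma adjusted p = 0.00024), fell in NC against NPC (log2 fold change -0.82, adjusted p = 0.019) and was higher in NC than in mESC (log2 fold change 1.39, adjusted p = 0.000781). The fall was not called without NC replicate 1 (log2 fold change -0.73), nor without NPC replicate 1 (-0.81) or NPC replicate 2 (-0.82).

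As a share of the summed TPM of the 3 GLI genes, a quantity chosen after the values were seen, Gli1 made up 56.4% and 46.6% in mESC. Its share was 42.3% and 31.9% in NPC, and 9.81% and 1.48% in NC. Gli3 made up 8.80% and 10.3% in mESC. Its share was 37.1% and 43.9% in NPC, and 63.9% and 59.1% in NC. By TPM, the most abundant GLI transcript was thus Gli1 in both mESC libraries and Gli3 in both NC libraries. In NPC, replicate 1 was led by Gli1 and replicate 2 by Gli3. The deposited coverage gave the same leaders in mESC and NC but put Gli1 first in both NPC libraries. In NPC replicate 2 coverage was 25.8 for Gli1, 12.1 for Gli3 and 4.84 for Gli2, so the shares depend on the measure. The 3 genes summed to 83.7 and 81.1 TPM in mESC, 107.5 and 90.5 TPM in NPC and 32.6 and 39.9 TPM in NC. The shares are given as a description, with no test, because they were chosen after the values were seen. RNA shares say nothing of how GLI2 and GLI3 proteins were processed.

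**Figure D2:**
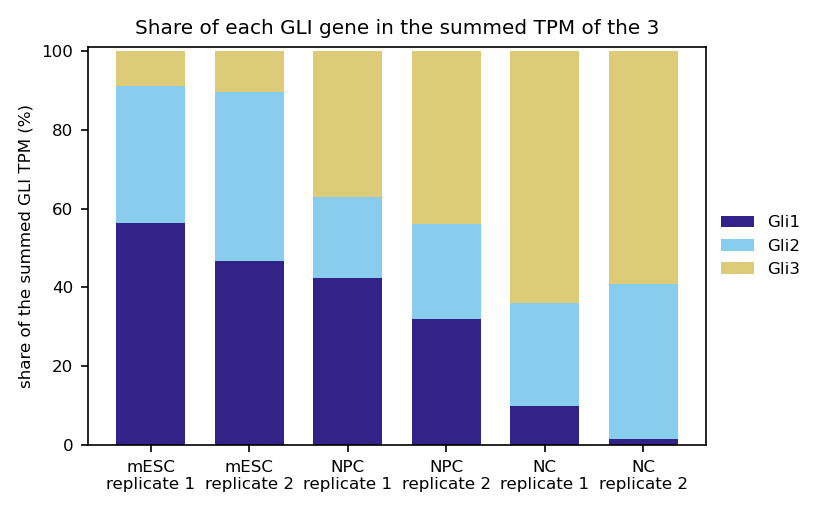
Share of Gli1, Gli2 and Gli3 in the summed TPM of the 3 genes (vertical axis, percent) in each of the 6 libraries, in the order mESC, NPC and NC. The Gli1 share is 46.6% to 56.4% in mESC and 1.48% to 9.81% in NC, and the Gli3 share is 8.80% to 10.3% in mESC and 59.1% to 63.9% in NC.

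Across the 8 tested genes, 5 were called higher in NPC than in mESC (Gas1, Boc, Gli3, Hhip and Smo), or 62.5%, where 26.0% of all tested genes were called higher and 14.0% lower. The median log2 fold change of the 8 was 1.76, against 0.18 for all tested genes. In NC against NPC 6 were called lower (Gli1, Gas1, Hhip, Ptch1, Smo and Gli3), or 75.0%, where 10.1% of all tested genes were called lower and 15.2% higher. Their median was -1.05, against 0.11 for all tested genes. In NC against mESC 4 were called higher (Boc, Gas1, Gli3 and Smo) and 3 lower (Gli1, Gli2 and Ptch1), where 37.8% of all tested genes were called higher and 22.1% lower. These are 50.0% and 37.5% of the 8. The median of the 8 was 0.42, against 0.31 for all tested genes.

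Median-of-ratios scaling moved the median of all tested genes to -0.02 in NPC against mESC, 0.04 in NC against NPC and 0.04 in NC against mESC. It moved the share of calls that were higher to 52.1% from 65.0% in NPC against mESC and to 52.1% from 63.2% in NC against mESC. For NC against NPC that share was 60.1% as deposited, 47.7% under quantile scaling and 47.0% with FPKM. After median-of-ratios scaling the 8 genes had a median log2 fold change of 1.55 in NPC against mESC, -1.13 in NC against NPC and 0.15 in NC against mESC. All 5 calls of NPC against mESC were kept with each single library left out. In NC against NPC 1 of the 6 calls was kept without NPC replicate 1 (Gas1, adjusted p = 0.049) and 3 without NPC replicate 2 (Gas1, Gli1 and Ptch1). Calls over all tested genes dropped as well, to 1.53% and 6.31% from 25.3%, and the log2 fold changes of the 6 stayed negative in each of these fits.

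**Figure D3:**
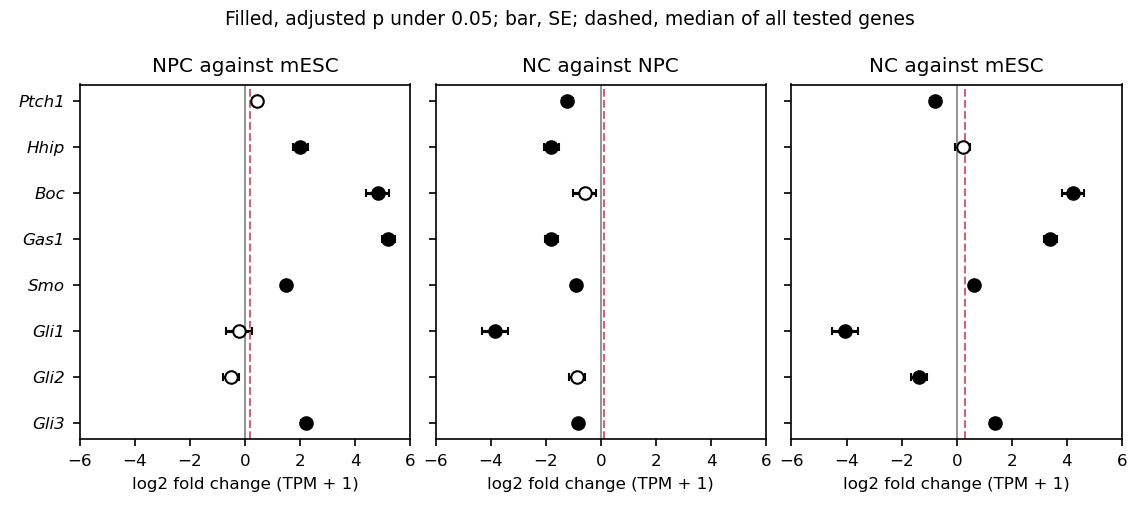
Log2 fold change of TPM + 1 (horizontal axis) with its SE for the 8 tested genes in the 3 comparisons; filled points passed an adjusted p of 0.05 and the dashed line is the median of all tested genes. In NPC against mESC Gas1 and Boc lie at 5.20 and 4.81, and in NC against NPC Gli1 lies at -3.85.

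Within a stage the levels can be ordered by TPM, which is per length, though the deposited coverage would order some genes differently. For instance, coverage in mESC replicates 1 and 2 was 35.25 and 42.6 for Gli1, against 23.0 and 35.5 for Smo. In mESC the order of mean TPM was Ptch1 (56.1), Smo (46.4), Gli1 (42.5), Gli2 (32.1), Gli3 (7.84), Gas1 (3.45), Boc (1.49 and 2.71 in its libraries), Hhip (1.82) and Shh. Smo and Gli1, and Boc and Hhip, overlapped as neighbours. In NPC Gas1 (166.5) and Smo (133.5) came first, followed by Boc (86.2), Ptch1 (76.3), Gli3 (39.8), Gli1 (37.2), Gli2 (22.05), Hhip (10.4) and Shh (0.910). Gas1 overlapped with Smo, Boc with Ptch1, and Gli3 with Gli1. In NC the order was Smo (72.25), Boc (59.7), Gas1 (45.9), Ptch1 (32.1), Gli3 (22.2), Gli2 (12.15), Hhip (2.29), Gli1 (1.90) and Shh. Smo, Boc and Gas1 overlapped in sequence, as did Hhip, Gli1 and Shh. The receptor gene Ptch1 and Smo were thus at 31.8 TPM or more in all 6 libraries.

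Other genes of the pathway were taken from lists of 84 genes, of which 83 were found by symbol or synonym and 76 were tested. In NPC against mESC 54 of the 76 rose (71.1%, against 26.0% of all tested genes) and 3 fell (3.95%, against 14.0%), with a median log2 fold change of 1.12. In NC against NPC 7 rose (9.21%, against 15.2% of all tested genes) and 17 fell (22.4%, against 10.1%), with a median of -0.10. The first comparison had 57 calls in all, but 37 when NPC replicate 1 was left out and 33 when NPC replicate 2 was. The second had 24, against 3 and 6 in those same fits, all of them falls, so the calls of the 7 rises were lost when either NPC library was left out.

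Of 6 tested genes of ligands and release, 5 rose in NPC against mESC, where 26.0% of all tested genes rose. Scube2, whose product carries lipid-modified ligand away from the cell, had 40.4 and 33.1 TPM in NPC, against 6.13 and 1.40 TPM in mESC, and 0.987 and 2.05 TPM in NC. It rose (log2 fold change 3.19, adjusted p = 0.00393 in limma) and then fell in NC against NPC (log2 fold change -3.93, adjusted p = 0.00523, not called without NPC replicate 1 at 0.0614). Scube3, a relative, rose to 41.4 and 52.9 TPM in NPC, against 3.65 and 4.14 TPM in mESC (log2 fold change 3.29, adjusted p = 0.000121), and fell in NC (log2 fold change -1.51, adjusted p = 0.00603). Scube1 rose in NPC (log2 fold change 4.08) and was not called in NC against NPC (log2 fold change 0.18, adjusted p = 0.676). Among other receptors and co-receptors was Gpc3, a glypican that competes with PTCH1 for ligand. It rose in NPC (log2 fold change 1.71, limma adjusted p = 0.0178) and fell in NC (log2 fold change -2.64, adjusted p = 0.00782). Both Gpc3 calls were lost in some fits that leave out 1 library.

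Of 13 tested genes that restrain GLI, 11 rose in NPC against mESC (10 under median-of-ratios scaling), where 26.0% of all tested genes rose. Of the 13, 4 rose in NC against NPC, where 15.2% of all tested genes did, and all 4 calls were lost when either NPC library was left out. Sufu, which binds GLI proteins in the cytoplasm, had 45.9 and 47.4 TPM in NPC, against 17.25 and 21.0 TPM in mESC (log2 fold change 1.25, limma adjusted p = 0.00208). Gpr161, a ciliary receptor that raises protein kinase A activity, rose in NPC against mESC (log2 fold change 2.45, adjusted p = 0.000471). It rose again to 38.7 and 34.4 TPM in NC, against 14.7 and 16.7 TPM in NPC (log2 fold change 1.17, adjusted p = 0.0152). Gsk3b, a kinase that marks GLI3 for processing, rose at both steps (log2 fold changes 1.71 and 1.15). Prkar1a, a regulatory subunit of protein kinase A, did so too (1.29 and 0.73). Btrc, the ubiquitin ligase subunit that recognises phosphorylated GLI, also rose at both steps (0.95 and 0.83). Prkar1a, Gsk3b and Btrc act in many other pathways. Of 9 partners of SMO and positive regulators of the pathway, 3 rose in NPC against mESC, a share of 33.3% near the 26.0% of all tested genes. These were Arrb1, Stk36 and Iqce (log2 fold changes 2.35, 1.72 and 1.25). Under median-of-ratios scaling 3 of the 9 rose and 2 fell. Stk36 rose again in NC (1.09, adjusted p = 0.0435, but 0.053 under median-of-ratios scaling and not called with any 1 library left out). Of 16 genes of the primary cilium, the organelle in which SMO acts, 11 rose in NPC against mESC (8 under median-of-ratios scaling). Of the 16, 1 fell, Tulp3, where 26.0% of all tested genes rose and 14.0% fell. Kif3a, a motor subunit of intraflagellar transport, had 48.4 and 52.4 TPM in NPC, against 13.7 and 14.1 TPM in mESC (log2 fold change 1.79, adjusted p = 0.00031), and rose in NC (log2 fold change 0.79), as did Kif3b (1.03). Both motors also work in axons. Dync2h1, Ift122 and Tmem67 rose in NPC as well (log2 fold changes 1.57, 1.20 and 1.08).

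**Figure D4:**
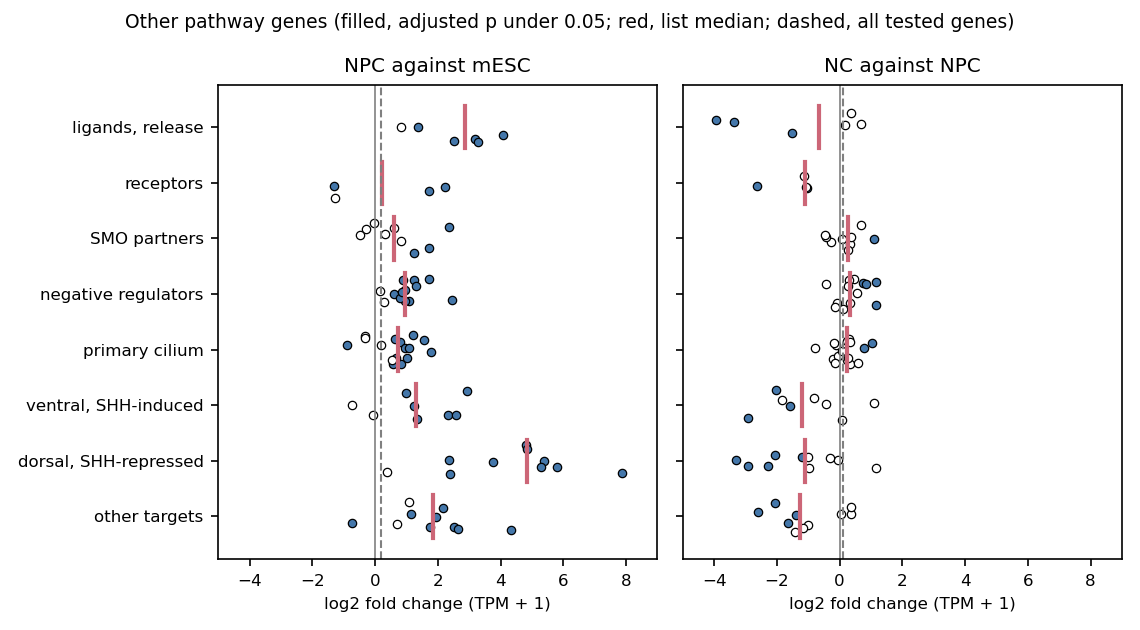
Log2 fold change of TPM + 1 (horizontal axis) for the tested genes of 8 lists, for NPC against mESC and NC against NPC; filled points passed an adjusted p of 0.05, red marks are list medians and the dashed line is the median of all tested genes. The medians of ligand and release genes are 2.86 and -0.66, and those of negative regulators 0.95 and 0.32.

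Genes that SHH is known to control in the neural tube were looked at next. Dorsal and intermediate factors, which SHH represses, rose for 9 of 10 tested in NPC against mESC, where 26.0% of all tested genes rose. Their median log2 fold change was 4.83, against 0.18 for all tested genes. Dbx1, a factor of intermediate progenitors, had 311 and 176 TPM in NPC and 156 and 87.8 TPM in NC, and both mESC libraries list it at 0. Irx3 had 105 and 86.0 TPM in NPC, against 0.419 and 1.06 TPM in mESC (log2 fold change 5.81, limma adjusted p = 3.57e-05). Irx5 and Msx1 rose as well (log2 fold changes 5.40 and 5.30). In NC against NPC 5 of the 10 fell, where 10.1% of all tested genes did. Among them were Pax7 (log2 fold change -3.31), Msx2 (-2.94), Msx1 (-2.27) and Pax6 (-2.05). The calls of Pax7, Msx1 and Pax6 were each lost in some fits that leave out 1 library. Pax7 had 0.825 and 4.09 TPM in NC, against 24.7 and 34.8 TPM in NPC.

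Of 11 ventral factors, which SHH induces, 8 were tested. In NPC against mESC 6 of the 8 rose, where 26.0% of all tested genes did. Of the 6, only Olig2 and Foxa1 stayed called with each single library left out. The median log2 fold change of the 8 was 1.30, against 0.18 for all tested genes. The levels of the ventral factors were low. Olig2, of motor neuron progenitors, had 5.97 and 4.10 TPM in NPC and both mESC libraries list it at 0. Nkx6-1 had 2.79 and 0.916 TPM in NPC, against 0.134 and 0 TPM in mESC. Nkx2-2, of the most ventral progenitors, stayed at or below 0.540 TPM in all 6 libraries, and Nkx2-1 at or below 0.123 TPM. The only ventral members that reached 10 TPM were Foxa2 and Foxa1, which mark endoderm as well as floor plate. Foxa2 had 24.3 and 17.4 TPM in NPC, against 6.05 and 1.60 TPM in mESC, and Foxa1 had 10.45 and 8.83 TPM in NPC, against 0.0824 and 0.782 TPM in mESC. Foxa1 fell again in NC (log2 fold change -2.93, adjusted p = 0.00437). Foxa2 was not called in NC against NPC (adjusted p = 0.0582). Foxa1 is itself one of the 7 endoderm markers given above, and the part of endoderm cells in these values was not tested. Among other targets, Ccnd2, a cyclin, rose to 601 and 482 TPM in NPC, against 17.1 and 38.5 TPM in mESC (log2 fold change 4.33, limma adjusted p = 0.000257), and fell in NC (log2 fold change -2.05). Mycn, a transcription factor gene of dividing progenitors, fell at both steps (log2 fold changes -0.75 and -1.39, adjusted p = 0.0206 and 0.00553), and Bmi1 rose in NPC (1.95).

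**Figure D5:**
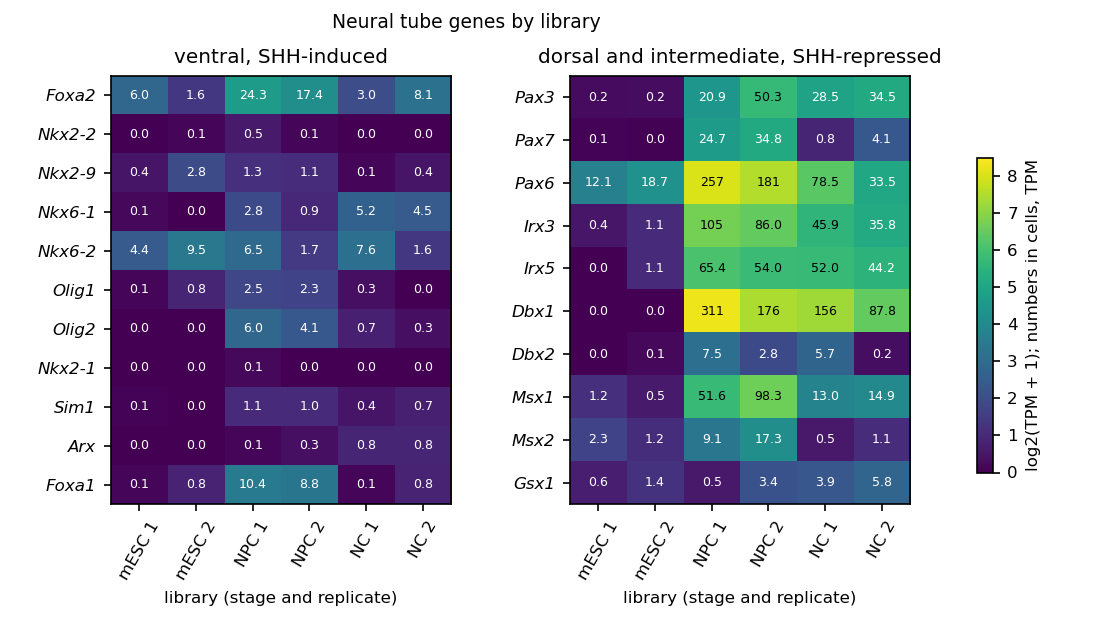
Ventral (left) and dorsal or intermediate (right) neural tube genes in the 6 libraries; colour is log2(TPM + 1) and the number in each cell is TPM. Dbx1, Irx3, Irx5, Pax6 and Msx1 exceed 50 TPM in both NPC libraries, whereas no ventral gene exceeds 24.3 TPM.

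The tested genes with the profiles most like each member, by the root mean square difference of centred log2(TPM + 1) over the 6 libraries, were none of the other members. For Ptch1 they were Cmtm4 (0.103) and Uaca (0.109), for Smo Gm9821 (0.070) and Matn2 (0.071), for Gli2 Otud4 (0.058) and Impact (0.104), and for Gli3 Armcx4 (0.073) and Pbx2 (0.090). For Hhip they were 4930448N21Rik (0.134) and Dgkz (0.165), for Gas1 Hoxaas3 (0.232) and D930007P13Rik (0.244), and for Boc Zfp703 (0.267) and Tshz3 (0.322). Gli1 had the most distant neighbours, Mgarp (0.404) and Cpn1 (0.474). Between members, Smo and Gli3 (0.375) and Smo and Hhip (0.418) were the closest pairs, and Gli1 and Boc (3.50) the farthest. With 3 stages and 2 libraries each, many genes share such profiles.

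The labels and headers do not state a strand setting, so reads of overlapping gene models may have been split between them. Arhgap9 overlaps the end of Gli1 on the opposite strand and lay between 0 and 3.69 TPM. Gm6556, which overlaps the start of Gli3 on the opposite strand, had 3.04 and 3.22 TPM in NPC, and was below 1 TPM in both mESC libraries. Gm13717 lies within Smo on the same strand, at 1.80 to 6.85 TPM. The other models that overlap a member stayed below 2 TPM.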

How the data were processed

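Per the labels, total RNA of E14TG2a cells was enriched for mRNA, depleted of rRNA, and its libraries (Ion Total RNA-Seq) were read on an Ion Proton. Per the submitters' processing notes, StringTie 2.1.5, STAR 2.7.9a and cutadapt 3.4 were used on mm10, as were DESeq2, R 4.0.3 and FastQC, with no roles or order given. Groups come from the sample titles. Per the file headers, each deposited table gives coverage (a signal, taken as read depth per base), FPKM and TPM per gene. The authors' TPM sum to 1000000 in each library. Repeated lines of a gene ID (2 to 9 per table) were summed. All 37 mitochondrial genes are listed at 0. Aligned Gb is the commonest ratio of deposited coverage to FPKM, shared by 38.3% to 39.7% of genes with at least 1 FPKM within 0.1%.

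Genes that reached 1 TPM in 2 or more libraries were tested with limma 3.58.1 in R 4.3.3 (lmFit, eBayes with trend, two-sided, 1 coefficient per group, all 6 libraries, 3 residual degrees of freedom) on log2(TPM + 1). This scale understates changes of low genes. The threshold was a Benjamini-Hochberg adjusted p of 0.05 over all tested genes. The fit was tested on simulated data. Means and ratios are of TPM, log2 fold changes are from the fit. Replicate numbers are not said to mark a shared culture or day. The 9 genes, the lists and the tests were chosen with earlier results of these data known. From the other lists the text names genes called at either step with at least 10 TPM in some library, at most 4 per list and step by size of change. Further genes (Dhh, Olig2, Nkx6-1, Nkx2-2, Nkx2-1, Tulp3 and the marker genes) were named after their values were seen, for their roles. Gene symbols and positions come from the deposited tables, and 1 listed gene, Mosmo, had no match. Promoters are from RefSeq; none of the 6 members with a window matched the GLI consensus, and the 2 windows printed were chosen afterwards. Protein sequences are not used here. A gene of the lists is not reported here.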

Additional observations from a re-analysis of the deposited data

How the results depend on the processing

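Alternatives were other scalings (median-of-ratios, quantile, FPKM), a pseudocount of 0.1, no filter beyond a TPM above 0, no trend, only the groups compared, a replicate block and each library left out. Of the single members' values under them, 314 kept direction and side of the threshold, 16 were no longer called, 3 became called and 3 had the other sign. Those 3 were Gli1 in NPC against mESC without NPC replicate 2 (log2 fold change 0.10, range -0.53 to 0.10 over the single libraries left out) and Hhip in NC against mESC under median-of-ratios (-0.001) and quantile scaling (-0.31), none of them called. With single libraries left out, the members called numbered 5 in each fit of NPC against mESC, 1 to 7 in NC against NPC and 6 to 7 in NC against mESC, and the other pathway genes called numbered 33 to 56, 3 to 21 and 45 to 48. In NC against NPC the lowest counts were those without NPC replicate 1, where 309 of all tested genes were called, against 5123 with all libraries, and 1276 without NPC replicate 2. With no filter 3166 were called. In NPC against mESC 4032 were called without NPC replicate 2 and 4621 without NPC replicate 1, against 8100. With a group of 1 library, that library is assumed to vary like the other groups, and such fits have fewer residual degrees of freedom. With a replicate block 5, 6 and 7 members were called in the 3 comparisons, as without it, and 7368 and 4247 genes in all for NPC against mESC and NC against NPC. The difference of replicate 1 from replicate 2 correlated across genes between stages at 0.045 (NPC and mESC), -0.082 (NC and mESC) and -0.07 (NC and NPC). Such correlations cannot tell whether same-numbered libraries shared a culture or day. Depth limits Shh, Gli1 in NC (coverage 2.33 and 0.496) and Hhip in mESC and NC (1.01 to 1.60). It also limits Boc in mESC (2.01 and 1.68), Gli2 in NC replicate 1 (1.57) and Gli3 in mESC replicate 1 (1.88).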
